A study of Drosophila melanogaster with 2 samples.

Results

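Among the strongest binding sites of the fly protein CG11247 in whole embryos were 3 that lay between pairs of genes transcribed away from each other, here called divergent pairs. The 6 genes were CG7601 and CIA30, Tcs5 and CHMP2B, and CG5611 and Mtl. They were 6 of 13945 protein-coding genes on the chromosome arms and 3 of 2240 divergent pairs whose outermost transcription start sites (TSSs) were at most 1000 bp apart. The pairs were chosen by the signal, rank and summit position of their peaks in the lists described here, so those values are a description and carry no test. Binding was measured by chromatin immunoprecipitation and sequencing (ChIP-seq), which enriches the DNA bound to a protein. The single group comprised embryos collected 0 to 24 h after laying, from flies of the strain CG11247-GFP with a transgene for CG11247 fused to eGFP, precipitated with an antibody against GFP. No source used here gives the transgene's promoter, the number of lines or the number of embryos per library. Each of 2 biological replicates gave 1 library, from chromatin sonicated to 200-800 bp, and the control experiment was not analysed here. Because embryos of all ages and cell types were pooled, the cells in which the sites were bound cannot be told apart.

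The pooled list held 4495 passing peaks, meaning peaks that the authors kept after ranking by the irreproducible discovery rate (IDR), a measure of how well a peak's rank recurs between 2 inputs. The replicate lists held 3010 and 2695 passing peaks. The numbers of reads are unknown. At the CG11247 gene itself the strongest passing peak had a signal of 562 (rank 139) and its summit lay 15 bp inside the gene, downstream of the outermost TSS. The same summit lay 141 bp upstream of Polr2H, which forms a divergent pair with CG11247, with 126 bp from TSS to TSS.

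Genes arranged head to head share the DNA between their start sites, so that one stretch can serve as the promoter of both, with each gene read from its own strand. The arrangement is common in the compact fly genome and is frequent among genes used in most cells. The 6 genes have varied roles. CIA30 is the fly relative of NDUFAF1, an assembly factor of respiratory complex I, and CG7601 has the synonym DHRS7B, a name of the short-chain dehydrogenase/reductase family. Tcs5 (Prpk) is the kinase of the KEOPS complex, which helps to make the t6A base of tRNAs, and CHMP2B is a subunit of the ESCRT-III complex that remodels endosomal membranes. Mtl (Mig-2-like) acts in cell migration and axon growth. RefSeq describes CG5611 only as uncharacterized.

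All coordinates are on dm6. CG7601 (FBgn0027583) occupied 3R:29735269-29736745 on the minus strand and CIA30 (FBgn0039689) 3R:29736965-29738070 on the plus strand, with 220 bp from TSS to TSS. Tcs5 (FBgn0035590) occupied 3L:5138652-5139395 on the minus strand and CHMP2B (FBgn0035589) 3L:5139619-5140473 on the plus strand, with 224 bp from TSS to TSS. CG5611 (FBgn0039531) occupied 3R:27634625-27636060 on the minus strand and Mtl (FBgn0039532) 3R:27636412-27639871 on the plus strand, with 352 bp from TSS to TSS. Mtl had further TSSs 137 and 449 bp inside its outermost one, and the other 5 genes each had 1. RefSeq gave the same outermost start for all 6 genes.

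The stretches between the TSSs are shown because they hold the summits and what the 3 sites share. They are written from left to right on the plus strand, and the pooled summit is base 107, 98 and 123 of its stretch. Capitals mark words of at least 9 bases that occur in at least 2 of the 3 complete stretches on either strand. For the first pair the stretch is 3R:29736746-29736964, and for the second it is 3L:5139396-5139618. For the last pair the leftmost 300 of 351 bases are given (3R:27636061-27636360). The bases come from the RefSeq genome assembly of this build.
CG7601/CIA30: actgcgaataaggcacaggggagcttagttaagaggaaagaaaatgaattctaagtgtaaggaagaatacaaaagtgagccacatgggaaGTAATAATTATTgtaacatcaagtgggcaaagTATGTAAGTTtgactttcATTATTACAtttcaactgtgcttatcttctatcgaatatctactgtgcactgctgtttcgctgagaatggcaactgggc
Tcs5/CHMP2B: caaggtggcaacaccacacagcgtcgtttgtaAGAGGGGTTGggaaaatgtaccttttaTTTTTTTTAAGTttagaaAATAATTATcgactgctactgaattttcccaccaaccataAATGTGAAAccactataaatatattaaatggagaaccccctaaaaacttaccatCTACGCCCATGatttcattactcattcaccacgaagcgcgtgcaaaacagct
CG5611/Mtl: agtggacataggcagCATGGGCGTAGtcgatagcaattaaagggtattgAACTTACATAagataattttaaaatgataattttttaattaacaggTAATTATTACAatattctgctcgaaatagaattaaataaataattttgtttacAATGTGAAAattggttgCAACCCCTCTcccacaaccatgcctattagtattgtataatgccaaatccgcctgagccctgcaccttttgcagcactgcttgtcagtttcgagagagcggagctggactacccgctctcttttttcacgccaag

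At CG7601/CIA30 the peak spanned 3R:29736687-29737017 and its summit lay 107 bp upstream of CG7601 and 113 bp upstream of CIA30. The summit was thus 3 bp from the midpoint of the 2 start sites. In replicate 1 it lay 100 bp from CG7601 and 120 bp from CIA30, and in replicate 2 it lay 105 and 115 bp away. The replicate offsets averaged 102.5 ± 3.54 bp from CG7601 and 117.5 ± 3.54 bp from CIA30 (SD, n = 2), and the replicate summits were 5 bp apart. The peak covered the 219 bases between the TSSs, 59 bp of the 5′ UTR of CG7601 and 53 bp of that of CIA30, and no coding base.

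At Tcs5/CHMP2B the peak spanned 3L:5139335-5139649, with the summit 98 bp upstream of Tcs5 and 126 bp upstream of CHMP2B, or 14 bp from the midpoint towards Tcs5. The summit lay 99 and 125 bp from the TSSs in replicate 1 and 105 and 119 bp from them in replicate 2. The means were 102 ± 4.24 bp from Tcs5 and 122 ± 4.24 bp from CHMP2B (SD, n = 2), with 6 bp between the replicate summits. In every list the summit was nearer to Tcs5, the KEOPS kinase gene. The peak reached 61 bp into Tcs5, of which 20 bp were coding, and 31 bp into CHMP2B.

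At CG5611/Mtl the peak spanned 3R:27636006-27636337 and was placed to one side. Its summit lay 123 bp upstream of CG5611 and 229 bp upstream of Mtl, 53 bp from the midpoint towards CG5611. It lay 109 and 243 bp from the TSSs in replicate 1 and 113 and 239 bp from them in replicate 2, with means of 111 ± 2.83 and 241 ± 2.83 bp (SD, n = 2). The replicate summits were 4 bp apart, yet the pooled summit lay to the right of both. Of the 2 inputs that the authors ranked against each other for replicate 2, one had its summit 123 bp and the other 106 bp from CG5611. The peak reached 55 bp into CG5611, of which 34 bp were coding, and did not reach any transcript of Mtl.

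**Figure D1:**
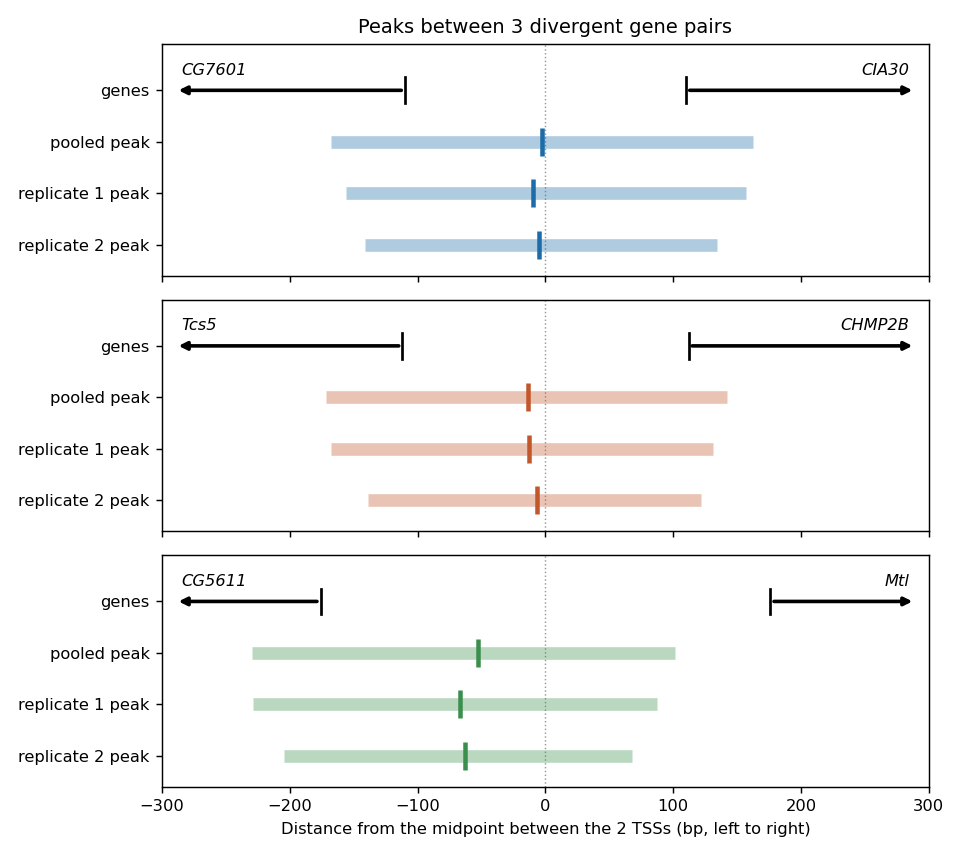
Peak intervals (bars) and summits (ticks) of the 3 divergent pairs in the pooled, replicate 1 and replicate 2 passing lists, against the distance in bp from the midpoint between the outermost TSSs. Black arrows mark each gene's TSS and direction. The summits of CG7601/CIA30 and Tcs5/CHMP2B lie within 14 bp of the midpoint in every list, and those of CG5611/Mtl lie 53 to 67 bp to its left.

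The agreement between replicates can be read against other sites. Over 2038 passing peaks of replicate 1 that overlapped one of replicate 2, the summits differed by a median of 18 bp (quartiles 7 and 35). Among the 496 of these that were in the strongest 500 of replicate 1, the median was 12.5 bp (quartiles 5 and 25). The gaps of 5, 6 and 4 bp at the 3 pairs were therefore at or near the lower quartile of strong peaks, which the members were chosen to be.

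The signal is the authors' deposited caller score, which can be compared only within a list. In the pooled passing list the signal was 2008 at CG7601/CIA30 (rank 5), 1784 at Tcs5/CHMP2B (rank 6) and 1641 at CG5611/Mtl (rank 8). These were 16.7, 14.8 and 13.6 times the list's median of 120. In replicate 1 the signals were 1151, 1008 and 953, with the same ranks of 5, 6 and 8. In replicate 2 they were 881, 779.6 and 672, with ranks of 5, 8 and 12. As a share of the highest signal of the same list, the replicates averaged 77.3% ± 0.815 at CG7601/CIA30, 68.0% ± 0.214 at Tcs5/CHMP2B and 61.4% ± 4.22 at CG5611/Mtl (SD, n = 2). The order of the 3 pairs was thus the same in each list, and CG5611/Mtl varied most. The ranked lists hold stronger peaks that are missing from the passing lists: there the ranks were 6, 7 and 9 in the pooled list and in replicate 1, and 6, 9 and 14 in replicate 2. Each pair had a −log10 IDR of 5, the highest value the ranked lists hold.

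The ranks just outside the members' were held by mRpL41 (rank 4, signal 2434), ph-p (rank 7, 1735) and CenG1A (rank 9, 1631). The 3 member peaks were 331, 315 and 332 bp wide. The 50 strongest peaks had a median width of 307.5 bp and the 500 strongest 218.5 bp, while the median over all passing peaks was 344 bp, the width shared by most of the list.

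**Figure D2:**
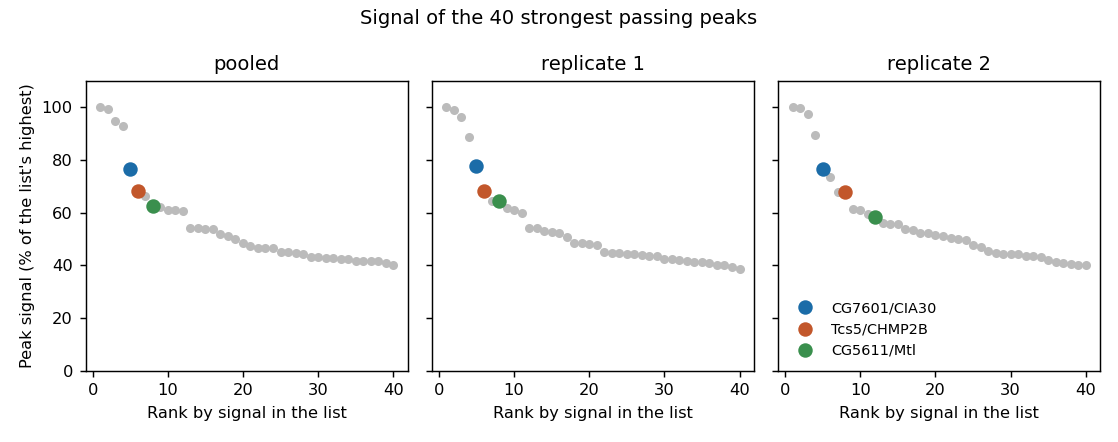
Signal of the 40 strongest passing peaks as a percentage of the highest signal in the pooled, replicate 1 and replicate 2 lists, against rank in that list. Coloured points mark the divergent pairs and grey points other peaks. CG7601/CIA30 is at rank 5 in each list, Tcs5/CHMP2B at 6, 6 and 8, and CG5611/Mtl at 8, 8 and 12.

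Each pair had 1 summit in its shared promoter. Within 1500 bp of the 3 summits the pooled ranked list held 9 other summits, 3 at CG7601/CIA30, 4 at Tcs5/CHMP2B and 2 at CG5611/Mtl, and 0 of them passed. Passing was rare in general, with 4495 passing peaks beside 137752 ranked ones, so 0 of 9 does not set these places apart. The 9 signals were 13.3 to 108, beside a median of 26.0 over the ranked list. They were 18.5 to 150 times lower than that of the member peak beside them, and the members were chosen for high signal. The strongest of the 9 lay 1234 bp to the right of the CG7601/CIA30 summit, near Gnpnat, with a signal of 108 and a −log10 IDR of 2.85. All peaks of the passing list had a value of at least 2, and this peak was not among them. The 6 genes that flank the pairs were Kul, Gnpnat, CG4611, Dhrs4, CG5612 and tau, and 0 of them had a passing summit within 500 bp of a TSS. CG4611 had no ranked summit there either. Over all protein-coding genes with a ranked summit there, 2599 of 10966 (23.7%) had a passing one. A count of 0 among so few genes does not set them apart. The nearest other passing peak was 8354 bp away at Wdr24 (signal 367) for CG7601/CIA30, 15626 bp away near Srp54k (202) for Tcs5/CHMP2B, and 26004 bp away at unc80 (88.2) for CG5611/Mtl.

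All 3 pairs had a passing summit because they were chosen for it. Of all 2240 divergent pairs, 665 had one between the TSSs or within 100 bp of them (29.7%, Wilson 95% interval 27.8 to 31.6, covering counting error only). Replicate 1 alone gave 21.9% and replicate 2 alone 22.1%. By pooled signal the members held places 3, 4 and 5 among the 665, at 13.1, 11.6 and 10.7 times the median signal of 154. The 2 stronger pairs were Ugalt/eIF2Bbeta, with 719 bp between TSSs, and mRpL41/CG8079, with 762 bp. Among the pairs with at most 500 bp between TSSs the members held places 1, 2 and 3 of 514. With at most 1000 bp, their places were 3, 4 and 6 of 490 in replicate 1 alone. In replicate 2 alone they were 3, 4 and 7 of 496.

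The spacing of the member genes was ordinary among divergent pairs. The distance between TSSs had a median of 300 bp over all pairs and 307 bp over those with a passing summit, beside 220, 224 and 352 bp for the members. The summit lay a median of 86.5 bp from the midpoint over the 665 pairs (quartiles 35.5 and 173). Over the 186 pairs with 200 to 300 bp between TSSs the median was 40.25 bp. In that class the 49 pairs under the strongest 500 peaks had a median of 25.5 bp and the 137 under weaker peaks 52 bp. CG7601/CIA30 (3 bp) and Tcs5/CHMP2B (14 bp) belonged to this class, and CG5611/Mtl (53 bp) was wider.

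The 5 pairs next in signal were mRpS23/CenG1A, Art3/mRpS10, Fbw5/CG9147, Atat/Shc and Chro/Ssl1. At Art3/mRpS10 (signal 1598) the summit lay 129 bp from Art3, an arginine methyltransferase gene, and 128 bp from mRpS10, a mitochondrial ribosomal protein gene. At Atat/Shc (1336) it lay 129 bp from the tubulin acetyltransferase gene Atat and 123 bp from the signalling adaptor gene Shc. These were centred like CG7601/CIA30. At mRpS23/CenG1A (1631) the summit was 393 and 99 bp from the TSSs, off-centre like CG5611/Mtl. At Fbw5/CG9147 (1360), with 44 bp between TSSs, and Chro/Ssl1 (1272), with 105 bp, it lay inside one of the genes, 93 bp within CG9147 and 82 bp within Chro.

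**Figure D3:**
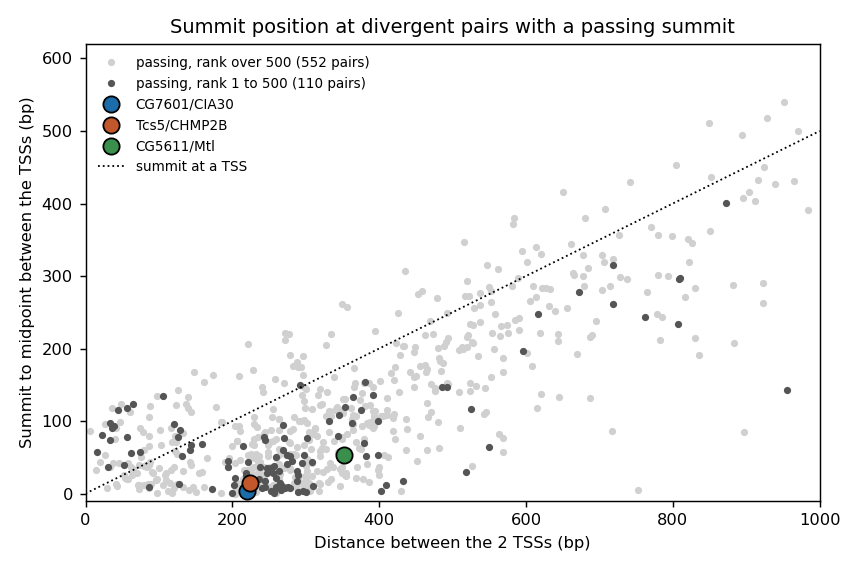
Distance in bp from the pooled summit to the midpoint between the TSSs, against the distance in bp between the TSSs, for the 665 divergent pairs with a passing summit. Black points are pairs under the strongest 500 peaks, grey points weaker ones, and coloured points the members, whose summits are 3, 14 and 53 bp from the midpoint. A summit on the dotted line coincides with a TSS.

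The DNA around the 3 summits was richer in AT than its flanks. Within 50 bp of the pooled summit the GC content was 31.7% at CG7601/CIA30, 25.7% at Tcs5/CHMP2B and 22.8% at CG5611/Mtl. These values were at percentiles 31.5, 13.2 and 6.21 among all passing summits. Windows of the same width 500 bp to each side held 58.4%, 49.5% and 55.0%, all above the median of 42.6% for the flanks of passing summits. The difference below therefore reflects the flanks as well as the summit. The difference between summit and flanks was thus -26.7, -23.8 and -32.2 percentage points, at percentiles 4.89, 7.82 and 1.59 among all passing summits, whose median difference was -4.46 points. The place of Tcs5/CHMP2B depended on the window: within 25 bp of the summit its GC content was 33.3% and its difference -15.7 points, at percentile 26.6, and the 21 bases at the summit itself held 42.9% GC. AT-rich summits were common among strong peaks, since the median GC content was 30.7% for the strongest 500, 37.6% for all passing summits and 48.5% for ranked summits that did not pass. At the replicate summits the values were 31.7% and 31.7% at CG7601/CIA30, 25.7% and 26.7% at Tcs5/CHMP2B, and 15.8% and 16.8% at CG5611/Mtl. In windows of 21 bases the GC content was lowest 40 bp to the right of the CG7601/CIA30 summit, 40 bp to the left of the Tcs5/CHMP2B summit (14.3%) and 40 and 60 bp to the left of the CG5611/Mtl summit (9.52% at both). The highest windows 80 to 140 bp to either side held between 47.6% and 66.7%. At CG5611/Mtl the content was low again farther out. It was 14.3% at 160 bp to the left and 14.3% to 28.6% from 200 to 300 bp to the right.

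**Figure D4:**
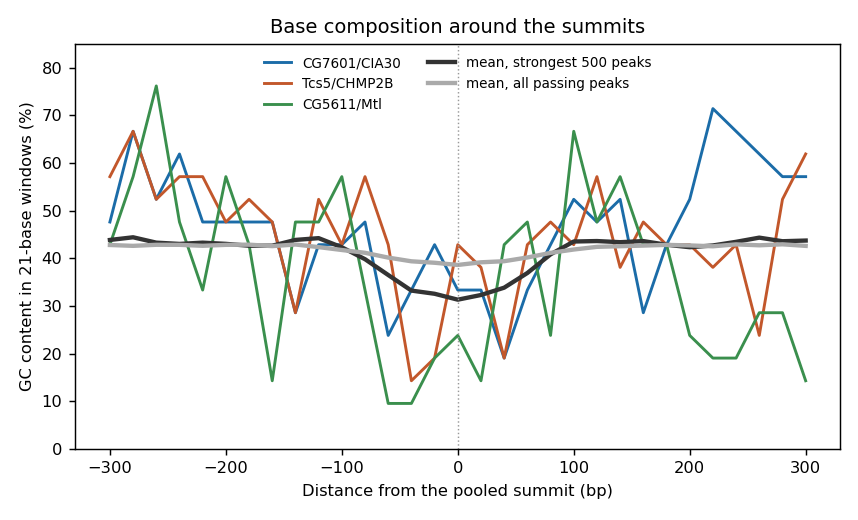
GC content in windows of 21 bases at steps of 20 bp, against distance in bp from the pooled summit. Thin lines are the 3 divergent pairs, the dark line is the mean of the strongest 500 peaks and the grey line the mean of all passing peaks. The mean falls to 31.3% at the summit for the strongest 500 and to 38.6% for all passing peaks.

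The longest word shared between stretches was the 11-base CTACGCCCATG, found in 2 of the 3. In Tcs5/CHMP2B it lay on the plus strand at 3L:5139567-5139577, its centre 79 bp to the right of the summit and its edge 42 bp from the CHMP2B start site. In CG5611/Mtl it lay on the minus strand at 3R:27636076-27636086, 102 bp to the left of the summit and 16 bp from the CG5611 start site. In both, the 5′ end of the word faced the summit. CG7601/CIA30 did not hold it. The word was picked after the sequences were seen, so the counts that follow describe these lists and are no test.

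Within 150 bp of the summit, on either strand, the word occurred in 14 of 4476 passing windows (0.313%), in 30 of 129786 ranked windows that did not pass (0.0231%) and in 2 of 8952 flanking windows (0.0223%). The planned window was 100 bp to each side, and 150 bp was added after the data were seen. At 100 bp the counts were 10 passing windows (0.223%), 23 that did not pass (0.0177%) and 2 flanking windows (0.0223%). The word at CG5611/Mtl, centred 102 bp from the summit, falls outside the planned window. The chromosome arms held the word 87 times, of which 15 were within 150 bp of a passing summit (17.2%, Wilson 95% interval 10.7 to 26.5). The counts at passing summits include the 2 members from which the word was taken. Of the strongest 500 peaks, 7 of 499 windows held it. Of the strongest 50 it was 4, those of Ugalt (rank 1), CG14100 (rank 2), Tcs5/CHMP2B (rank 6) and CG5611/Mtl (rank 8). The last 2 are the source of the word, and the next peak with it had rank 135. The 4 places under the strongest 50 peaks are shown in the orientation of the word, with 25 bases before it and 15 after it. Capitals mark the word and any run of at least 3 C before it. The places are X:2703938-2703988 and 3L:19590655-19590705 on the plus strand for Ugalt and CG14100, 3L:5139542-5139592 on the plus strand for Tcs5/CHMP2B, and 3R:27636061-27636111 on the minus strand for CG5611/Mtl.
Ugalt: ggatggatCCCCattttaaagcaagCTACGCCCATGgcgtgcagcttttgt
CG14100: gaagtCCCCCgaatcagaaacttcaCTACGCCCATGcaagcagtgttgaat
Tcs5/CHMP2B: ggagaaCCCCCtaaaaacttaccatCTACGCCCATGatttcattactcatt
CG5611/Mtl: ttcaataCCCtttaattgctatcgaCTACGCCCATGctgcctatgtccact

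A run of C preceded the word at all 4 places. This was noticed there, so those places were left out of the count that follows. A run of at least 4 C in the 20 bases before the word was present at 4 of the remaining 11 occurrences near passing summits (36.4%, Wilson 95% interval 15.2 to 64.6) and at 11 of 72 elsewhere on the arms (15.3%, 8.75 to 25.3). With at least 3 C the counts were 4 of 11 and 20 of 72. The intervals overlapped at both lengths, but overlap is no test. With 11 occurrences the counts cannot decide whether the shares differ.

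The side of the summit was also uneven. At passing peaks the summit lay on the 5′ side of the word at 15 of 15 occurrences (Wilson 95% interval 79.6 to 100%). These lay under 14 peaks, because the peak of rank 1826 held the word to both sides of its summit. The interval treats the occurrences as separate. Without the 2 members from which the word was taken the count was 13 of 13. At 10 of 30 occurrences in ranked windows outside the passing list the summit was on the 5′ side (33.3%, 19.2 to 51.2). At 1 of the 30 the word was centred on the summit, on neither side, and is not among the 10. In the replicates' own lists the count was 14 of 15 in replicate 1 and 10 of 11 in replicate 2, and 12 of 13 and 8 of 9 without the members. The first 8 bases of the word, CTACGCCC, were also counted where the other 3 did not follow, which leaves out every occurrence of the full word. The summit was then on the 5′ side at 29 of 39 occurrences at passing peaks (74.4%, 58.9 to 85.4), at 15 of 16 among the strongest 500 peaks, and at 350 of 701 at peaks that did not pass (49.9%, 46.2 to 53.6).

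**Figure D5:**
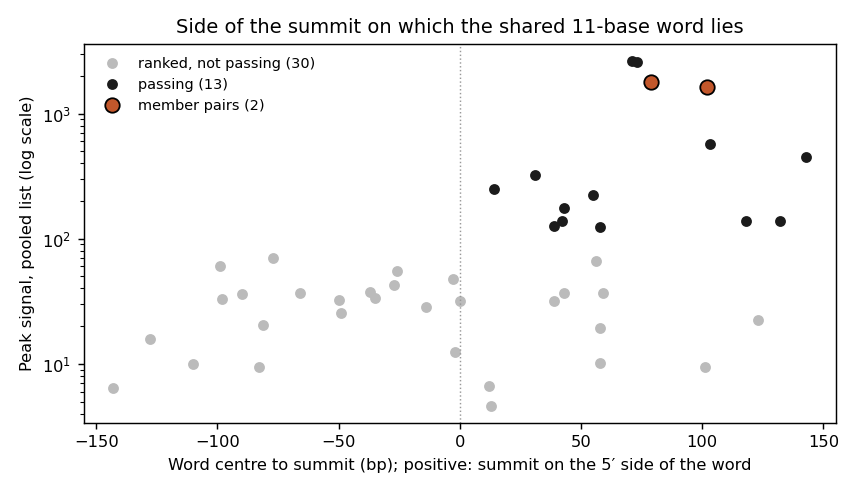
Peak signal in the pooled list (log axis) against the distance in bp from the summit to the centre of the word shared by Tcs5/CHMP2B and CG5611/Mtl, with positive values where the summit lies on the 5′ side of the word. The 15 occurrences at passing peaks, the 2 orange member points included, all lie on the positive side, 14 to 143 bp from the summit. Grey points are 30 occurrences at ranked peaks that did not pass, of which 10 are positive.

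Shorter words joined the pairs in other combinations. CG7601/CIA30 and CG5611/Mtl shared GTAATAATTA, centred 11.5 and 22.5 bp to the left of their summits, on opposite strands. It occurred in 16 passing windows (0.357%), 100 that did not pass (0.0770%) and 11 flanking windows (0.123%), and 3 of the 50 strongest peaks held it. The same 2 pairs shared TATGTAAGTT, which occurred in 7 passing windows (0.156%), 83 that did not pass (0.0640%) and 13 flanking windows (0.145%). Its share at passing summits was thus close to that in the flanks. The passing counts include the 2 pairs that share each word. Tcs5/CHMP2B and CG5611/Mtl also shared AGAGGGGTTG, which no other passing window held. Thus 2 of 4476 passing windows (0.0447%), 52 that did not pass (0.0401%) and 1 flanking window (0.0112%) had it. The longest word in all 3 stretches had 8 bases, AATAATTA, and occurred within 100 bp of 4.11% of passing summits, 1.45% of those that did not pass and 2.83% of flanking windows.

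Windows of 100 bp to each side of the summit were searched on both strands for 13 known motifs, of which 2 were in all 3 windows, 2 in 1 window each and 9 in none. The homeodomain core TAATTA, which lies inside the word shared by all 3, was present in 13.8% of passing windows, 8.45% of those that did not pass and 12.3% of flanking windows. CGATA, the short site of the insulator protein BEAF-32, was present in 29.1%, 19.5% and 21.8%. In Tcs5/CHMP2B these motifs overlapped by 2 bases. Tcs5/CHMP2B alone held TATAAA, the TATA box (28.6% of passing windows), and CG5611/Mtl alone held GAGAG, the GAGA factor core (24.2%). The 9 not found were the DNA replication-related element TATCGATA (3.89% of passing windows), Motif 1 (1.09%), Motif 6 (0.424%), Motif 7 (6.90%), the Su(Hw) site (0.782%), the E-box CAGCTG (10.6%), the Zelda site CAGGTAG (0.782%), the Pho core GCCAT (31.0%), and the CTCF site in its 4 spellings AGAGGGCGC, AGATGGCGC, AGGGGGCGC and AGGTGGCGC (3.28%).

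The pathways of CIA30, Tcs5 and CHMP2B were compared by how many of their genes had a passing summit within 500 bp of a TSS, counted over genes with a ranked summit there. Over all such genes the share was 2599 of 10966 (23.7%). Of KEOPS and t6A genes it was 1 of 4, Tcs5 itself, and Tcs1, Tcs3 and Tcs4 had ranked summits that did not pass. Of complex I assembly genes it was 1 of 2, CIA30, with sicily not passing. Of ESCRT genes matched by symbol it was 4 of 11, or 3 of 10 without CHMP2B, which was chosen for its peak. The 3 were Vps36, an ESCRT-II subunit gene (signal 254), Vps24, another ESCRT-III subunit gene (94.8), whose summit lay 480 bp from its TSS and 128 bp from that of Suv3, and Vps28, an ESCRT-I subunit gene (93.2). The planned list also held Vps37A, which matched no symbol. A gene with the similar symbol Vsp37A had a passing summit 237 bp from its TSS (signal 81.4) and is not in these counts. The peaks of Tcs5, CIA30 and CHMP2B thus exceeded those of every other gene of these lists, which follows from how they were chosen.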

How the data were processed

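ChIP-seq peak lists of 2 biological replicates of 1 group were analysed. Peaks are on dm6, per the labels; no source used here names the caller or the aligner. The authors deposited ranked and thresholded lists for each replicate, for the pooled reads and, in a conservative form, for the true replicates against each other. An input that the deposited listing does not describe also went into the thresholded lists. The deposited signal is a score of the authors' caller, the deposited −log10 values are of the global IDR, and the deposited summit offset is in bp from the peak start. Depth is unknown, so no interval was given for a signal.

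Genes were taken from Ensembl release 115 and sequences from RefSeq, both on the build that FlyBase calls release 6 (dm6). Python 3.11.15 with numpy 2.4.6 and matplotlib 3.10.9 computed summits, offsets to the outermost TSSs, ranks, GC content (101-base windows unless stated), words and motifs of either strand (within 100 bp for motifs and within 150 bp for words shared by 2 pairs), and Wilson 95% intervals. Passing means present in the pooled thresholded list. Replicate error is the SD over n = 2. The pair, word and interval steps were tested on simulated data. The text names the 6 members, the genes at the 5 divergent pairs next in signal, the genes flanking each pair, listed pathway genes with a passing summit, and CG11247; other genes were named after their values were seen. A gene list planned for Mtl is not reported here. The members and lists were chosen with earlier results of these data known. Alternatives changed the list, the replicate, the distance or the window.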

Additional observations from a re-analysis of the deposited data

How the results depend on the processing

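The caller score, the summit resolution of sonicated DNA, the unknown depth and 2 replicates limit the values. In the replicates' own lists the summit lay 100 to 105 bp from CG7601 and 115 to 120 bp from CIA30, 99 to 105 bp from Tcs5 and 119 to 125 bp from CHMP2B, and 109 to 113 bp from CG5611 and 239 to 243 bp from Mtl. In their passing lists the rank of Tcs5/CHMP2B was 6 to 8 and that of CG5611/Mtl 8 to 12. The share of divergent pairs with a passing summit was 30.4% with at most 500 bp between TSSs, 28.4% with at most 2000 bp, 28.0% in the conservative list, 21.9% to 22.1% in 1 replicate alone, 19.9% for the stronger 50% of passing peaks, 32.6% for summits within 500 bp of a TSS and, in an alternative added after the data were seen, 46.1% of pairs with a ranked summit. The ESCRT count, CHMP2B included and Vsp37A left out, was 2 to 4 in 1 replicate alone, 3 within 200 bp and 3 in the conservative list. GC content within 25 and 100 bp of the summit was 31.4% and 35.3% at CG7601/CIA30, 33.3% and 35.3% at Tcs5/CHMP2B, and 17.6% and 29.4% at CG5611/Mtl; at single-replicate summits it was 25.7% to 26.7% at Tcs5/CHMP2B and 15.8% to 16.8% at CG5611/Mtl. The BEAF-32 site was within 50 bp of the summit at Tcs5/CHMP2B alone. The shared 11-base word was in 0.112% of passing windows at 50 bp and 0.223% at 100 bp, the planned window. The cause of these shifts was not tested. No paired analysis was possible because there is 1 group and no test.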
